A study of Homo sapiens with 4 samples.

Results

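Heat shock proteins are chaperones that keep other proteins folded, and co-chaperones steer them. The genes described here are 39 members of this network, chosen by symbol from a list of HSP70, HSP110, HSP90, mitochondrial, J-domain, BAG and small heat shock proteins together with 2 heat shock factors. All 39 symbols were found among the 24424 gene symbols of each count file. Expression was measured by RNA sequencing in BEAS-2B, an immortalised line of wild-type human bronchial epithelial cells, with 1 library per group, in order to compare LPS responses between cells given occludin siRNA or an occludin construct. The control cells were untreated, and the LPS cells received bacterial lipopolysaccharide, a ligand of the receptor TLR4, for 2 h. The siOCLN+LPS cells were transfected for 24 h with siRNA against occludin, a tight junction protein encoded by OCLN, and then given LPS for 2 h. The library labelled wtOCLN+LPS came from cells transfected for 24 h with wild-type occludin before the same 2 h of LPS. The labels of control and LPS mention no transfection, so transfection itself and what was transfected cannot be told apart against them.

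HSP70 proteins bind exposed hydrophobic stretches of unfolded clients in a cycle driven by ATP. J-domain proteins deliver clients and stimulate ATP hydrolysis, while HSP110 and BAG proteins release the nucleotide. Some clients pass on to HSP90, and small heat shock proteins hold unfolded proteins without ATP. Under proteotoxic stress HSF1 forms trimers on inverted repeats of nGAAn in promoters and raises transcription of inducible members such as HSPA6 and HSPA1A, while HSPA8 and HSP90AB1 are expressed in unstressed cells too.

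Promoter stretches are shown for 4 HSP70 genes. HSPA6 had the lowest ratio of all members in both transfected libraries against LPS. HSPA1A and HSPA1B are near-identical genes. HSPA8 was the most abundant member per length, with ratios near 0. The stretches come from RefSeq promoter windows on GRCh38.p14 (250 bases before to 50 bases after a transcription start). Each is given 5′ to 3′ on the gene's strand. The HSPA6, HSPA1A and HSPA1B stretches lie in no annotated exon, which is not claimed for the HSPA8 stretch. Capitals mark matches to the heat shock element letters GAANNTTC, which read the same on both strands, or to a longer run, GAANNTTC followed at once by NNGAA or, on the other strand, preceded at once by TTCNN, which contains the shorter one (N is any base). The HSPA6 stretch is chr1:161524290-161524539 on the plus strand, the 250 bases upstream of the start. HSPA1A is shown at chr6:31815293-31815463 and HSPA1B at chr6:31827488-31827658, both on the plus strand. HSPA8 is shown at chr11:123062171-123062199 on the minus strand.
HSPA6: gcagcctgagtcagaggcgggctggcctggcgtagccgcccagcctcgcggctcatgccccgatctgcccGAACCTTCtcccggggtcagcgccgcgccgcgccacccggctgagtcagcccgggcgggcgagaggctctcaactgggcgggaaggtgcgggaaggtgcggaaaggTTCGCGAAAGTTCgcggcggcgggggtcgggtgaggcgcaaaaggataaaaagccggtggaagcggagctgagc
HSPA1A: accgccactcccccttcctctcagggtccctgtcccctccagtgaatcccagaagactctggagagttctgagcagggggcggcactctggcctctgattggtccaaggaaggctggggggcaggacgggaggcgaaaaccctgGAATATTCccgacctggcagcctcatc
HSPA1B: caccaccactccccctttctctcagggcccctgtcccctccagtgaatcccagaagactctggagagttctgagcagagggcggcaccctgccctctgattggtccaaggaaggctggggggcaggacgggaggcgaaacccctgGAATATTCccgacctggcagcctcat
HSPA8: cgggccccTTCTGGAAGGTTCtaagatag

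In HSPA6 the longer match begins 74 bases before the start and a separate shorter match 180 bases before it. The shown HSPA1A and HSPA1B stretches each hold a shorter match, 106 and 105 bases before the start, and are 94.8% identical (163 of 172 aligned columns). The HSPA8 window holds 2 longer matches, and the match shown begins 55 bases before the start. Windows were found for 36 of the 39 members; HSF1, HSPA14 and CRYAB were not matched. GAANNTTC occurred in 17 of 51 member windows (33.3%), against 6.77% of all 35116 windows of the same length. Some members have more than 1 window, and by gene it occurred in 16 of 36 members, against 8.21% of all 27305 symbols. The windows of HSPA1A and HSPA1L overlap, and their match is the same site. The longer letters occurred in 8 of the 51 (15.7%), against 0.49% of all windows. The 8 members with the longer letters were HSPA6, HSPA8, HSPD1, HSP90AA1, HSP90AB1, DNAJA1, DNAJB6 and CHORDC1.

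Total counts were 13867494 to 17500031 per library. OCLN had 50.4 CPM in LPS (CPM, counts per 1000000 counts of the library), 0.417 of that level in siOCLN+LPS (95% interval 0.366 to 0.473) and 0.588 in the library labelled wtOCLN+LPS (0.524 to 0.660). The OCLN counts therefore lay on the side opposite to that label, and no direction below is read as one of raised occludin. Whether sequence of the construct was counted is not known, and the counts give no protein level. Airway epithelial markers were present at 1 CPM or more in every library (8 of 8), with summed levels of 1528 CPM in control, 1288 with LPS, 2360 in siOCLN+LPS and 2468 for the library labelled wtOCLN+LPS. KRT8 alone was at 442, 372, 976 and 919 CPM in that order. Against LPS, KRT5 and EPCAM were lower in both transfected libraries, and the other markers of that list were higher. Of 5 leukocyte markers 4 were under 1 CPM in every library, with CD3E at 0 throughout and sums of 17.5, 17.1, 5.15 and 7.89 CPM in the same order. The remaining leukocyte marker, CD68, had 16.55, 16.59, 4.98 and 7.49 CPM. Of 6 fibroblast markers 5 were under 1 CPM, with sums of 56.1 to 63.0 CPM, and the remaining one was COL1A1 at 55.2 to 62.7 CPM. Of 4 endothelial markers 3 or 4 were under 1 CPM, with sums of 0.378 to 1.59 CPM. The part of these marker differences in the chaperone ratios was not tested. With 1 library per group there is no test of a condition. Ratios are between libraries, their 95% intervals are exact (Clopper-Pearson for a ratio, Poisson for a level) and cover counting error only, and a gene is called higher or lower when log2(CPM + 1) differs by at least 2-fold. In bulk RNA, a change in the make-up of the cells and a change in RNA per cell cannot be told apart.

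The members together made up 0.842% of counts in control, 0.823% with LPS, 0.717% in siOCLN+LPS and 0.721% for the library labelled wtOCLN+LPS. Per kilobase of transcript, the constitutive HSP70 HSPA8 ranked first in control at 535 CPM per kb. The constitutive HSP90 HSP90AB1 (501 CPM per kb) and the inducible HSP90AA1 (318 CPM per kb) came next. They were followed by HSPD1, the mitochondrial HSP60 (267 CPM per kb), HSPA9, the mitochondrial HSP70 mortalin (169), and HSPB1, the small heat shock protein HSP27 (165). The stress-inducible HSPA1B and HSPA1A stood at 27.9 and 25.8 CPM per kb, HSPA6 at 5.33, and HSPA12A, a divergent HSP70, was last at 0.275. At least 1 CPM was reached by 39 members in control, 38 with LPS, 35 in siOCLN+LPS and 36 for the library labelled wtOCLN+LPS.

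**Figure D1:**
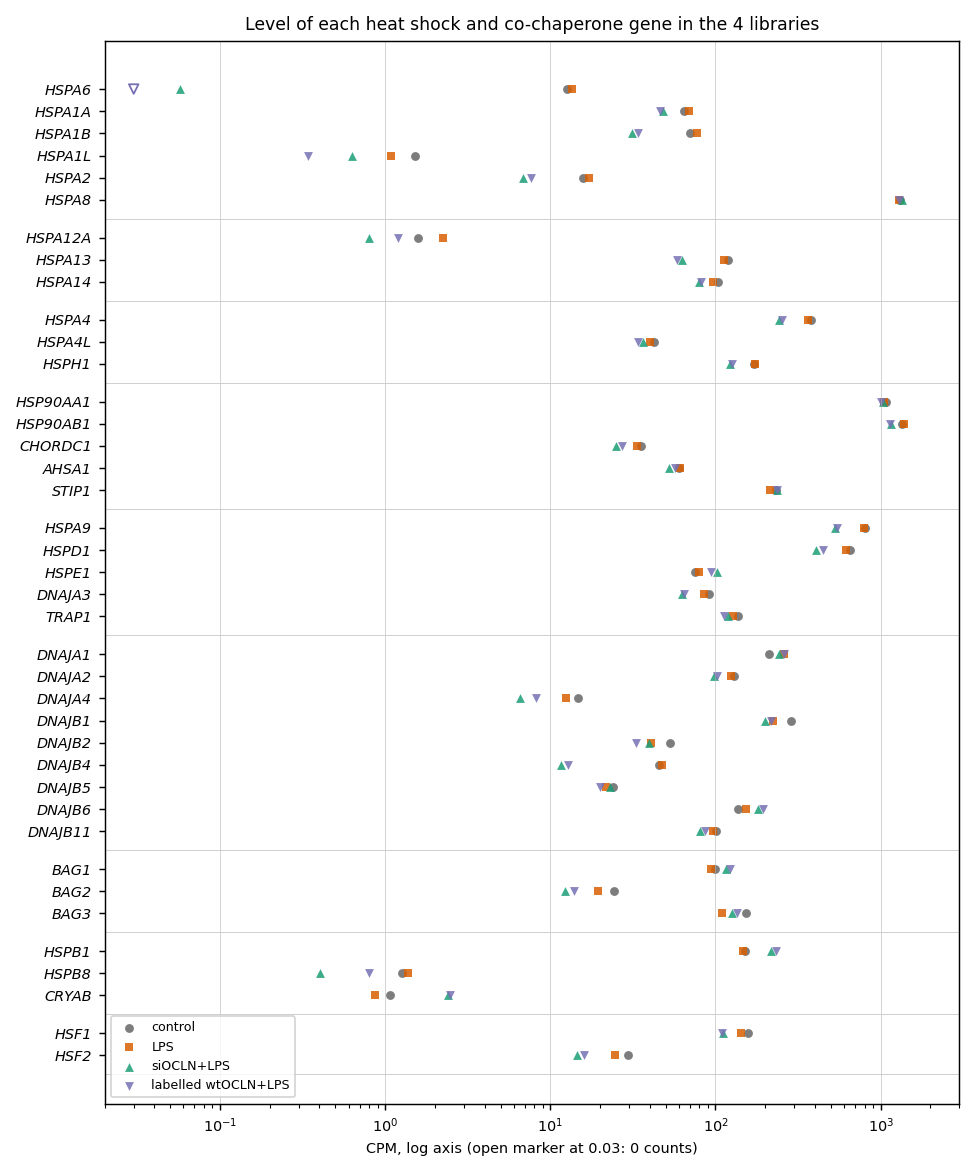
Level of each of the 39 genes in the 4 libraries, in CPM on a log axis, grouped by role; the open marker stands for 0 counts. HSPA6 lies at 12.7 and 13.5 CPM in control and LPS and at 0.0572 and 0 CPM in the transfected libraries, whereas HSPA8, HSP90AA1 and HSP90AB1 lie at 999 CPM or more in every library.

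The LPS library against control addresses the response to LPS without a transfection step in the labels. No member was called higher or lower, where 1.6% of the 13551 genes tested (1 CPM or more in at least 1 of both libraries) were called higher and 0.207% lower. The member ratios ran from -0.47 to 0.33 on the log2 scale, with a median of -0.07 beside -0.09 for all tested genes. With TMM scaling, which sets libraries level on a trimmed mean of gene ratios, the median of the 38 members then tested was 0.03 and that of all genes 0.00, so neither sign is read as a direction.

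The lowest ratio on the log2(CPM + 1) scale was that of BAG3, a co-chaperone that carries aggregated clients to autophagy, which had 153 CPM in control against 110 CPM with LPS (0.722 of control, 0.677 to 0.770). DNAJB1, the main stress-inducible HSP40, was at 285 and 222 CPM (0.778, 0.743 to 0.815), and DNAJB2, a J-domain protein abundant in neurons, at 53.3 and 40.5 CPM (0.760, 0.682 to 0.847). BAG2, an inhibitor of the ubiquitin ligase CHIP, was at 24.2 and 19.3 CPM and the heat shock factor HSF2 at 29.5 and 24.5 CPM. With library totals the intervals of these 5 genes lay below 1. With TMM scaling the ratio of BAG2 was 0.851 and that of HSF2 0.888, and the HSF2 interval scaled in the same way includes 1. DNAJA1, a J-domain partner of HSPA8, was on the other side, 211 CPM in control against 258 CPM with LPS, 1.22-fold higher (1.17 to 1.28). HSPA12A (25 and 31 counts) and HSPA1L (24 and 15 counts) completed the 8 farthest from 0, and their intervals of 0.812 to 2.51 and 0.349 to 1.42 include 1. The inducible HSP70 genes were near control: HSPA6 had 201 and 187 counts, HSPA1A 64.1 and 68.7 CPM, and HSPA1B 70.2 and 77.1 CPM.

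Both siOCLN+LPS and the library labelled wtOCLN+LPS were set against the same LPS library, which has no transfection in its label. Because both comparisons share that library, their values are set side by side and their likeness is not counted as support. In each of them 4 of 39 members (10.3%) were called lower, HSPA6, DNAJB4, HSPA1B and HSPA2, and none higher. Among all tested genes 3.92% were called lower and 3.32% higher in siOCLN+LPS (13505 tested), and 3.69% lower and 3.32% higher in the library labelled wtOCLN+LPS (13493 tested). The member median was -0.34 in siOCLN+LPS beside -0.13 for all genes, and -0.29 beside -0.15 in the library labelled wtOCLN+LPS. With TMM scaling, which shifts the median of all genes to 0.01 in both, the member medians were -0.19 and -0.12. HSPA1B and HSPA2 were then no longer called in the library labelled wtOCLN+LPS, which leaves 2 members lower there beside 2.48% of all genes, and 4 in siOCLN+LPS beside 2.81%. At a 1.5-fold threshold 11 members were lower in siOCLN+LPS (28.2%, beside 15.3% of all genes) and 7 in the library labelled wtOCLN+LPS (17.9%, beside 15.1%), so at that size the second share is near that of all genes. On the higher side at 1.5-fold were 1 member in siOCLN+LPS (CRYAB, beside 9.09% of all genes) and 2 in the library labelled wtOCLN+LPS (CRYAB and HSPB1, beside 8.59%).

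**Figure D2:**
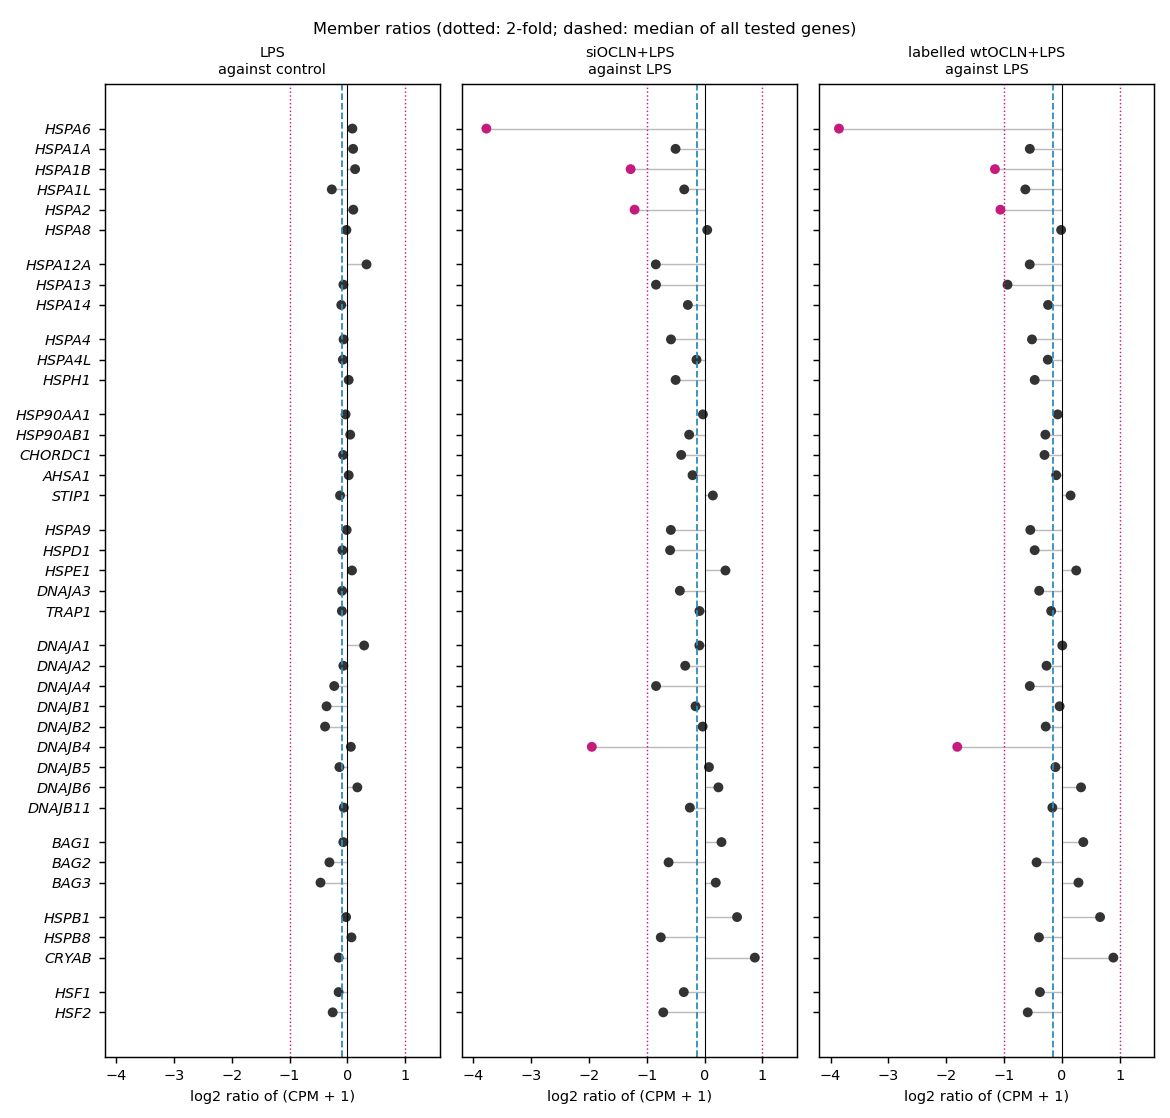
Log2 ratio of (CPM + 1) for each member in 3 pairs of libraries; dotted lines mark 2-fold, the dashed line the median of all tested genes, and coloured points the members called. No point passes 2-fold in LPS against control, and HSPA6, HSPA1B, HSPA2 and DNAJB4 lie past it on the lower side in both comparisons with LPS.

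HSPA6 encodes an HSP70 that is scarcely expressed without stress. It had 201 counts in control, 187 with LPS, 1 in siOCLN+LPS and 0 for the library labelled wtOCLN+LPS, or 12.7, 13.5, 0.0572 and 0 CPM. The 2 libraries without transfection in their labels held nearly all of its counts, and the transfected libraries were at or under the 3 counts taken as the floor. Its CPM ratio to LPS was 236-fold lower in siOCLN+LPS (41.8 to 9357) on that 1 count. In the library labelled wtOCLN+LPS it was 78.7-fold lower with its 0 counts set to the floor of 3 (the exact interval begins at 63.3-fold). On the log2(CPM + 1) scale the ratios were -3.78, the second lowest of 13505 genes, and -3.86, the lowest of 13493. The counts of 1 and 0 lie within counting error of each other, so the 236-fold and 78.7-fold values come from different rules and show no difference between the transfected libraries. HSPA7, an HSPA6-like pseudogene that holds 45.5% of the 50-base runs of the HSPA6 transcript, had 9, 14, 0 and 1 counts in the same order. Reads common to both could not be placed, but the sum of both genes was also far apart, with 201 counts in LPS and 1 in each transfected library.

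HSPA1A and HSPA1B encode the same major stress-inducible HSP70. HSPA1B was at 70.2 CPM in control, 77.1 with LPS, 31.1 in siOCLN+LPS and 34.0 for the library labelled wtOCLN+LPS. It was 2.48-fold lower than LPS in siOCLN+LPS (2.23 to 2.75) and 2.27-fold lower for the library labelled wtOCLN+LPS (2.05 to 2.51). HSPA1A was at 64.1, 68.7, 48.2 and 46.5 CPM and was not called, with log2 ratios of -0.50 and -0.56. The transcripts share 72.6% of the 50-base runs of HSPA1A and are 88.4% identical, so how counts were split between them is uncertain. Their sum, 134, 146, 79.3 and 80.5 CPM, does not depend on that split between the pair and was 1.84-fold lower in siOCLN+LPS (1.72 to 1.97) and 1.81-fold lower for the library labelled wtOCLN+LPS (1.69 to 1.94). Counted as 1 gene the pair falls short of the 2-fold call, leaving 3 of 38 members lower in each comparison. HSPA1B took 52.3% of the pair's counts in control (50.1 to 54.4), 52.9% in LPS (50.7 to 55.1), 39.3% in siOCLN+LPS (36.7 to 41.9) and 42.3% for the library labelled wtOCLN+LPS (39.7 to 44.9).

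HSPA2, an HSP70 best known from male germ cells, was at 15.9 CPM in control, 17.1 with LPS, 6.81 in siOCLN+LPS and 7.66 for the library labelled wtOCLN+LPS. Both transfected libraries lay under LPS, 2.51-fold (2.00 to 3.15) and 2.23-fold (1.80 to 2.78). HSPA8 stood apart from these at 1317, 1301, 1342 and 1289 CPM, with log2 ratios of 0.04 and -0.01. HSPA1L, a relative of HSPA1A transcribed mostly in testis, rested on 24, 15, 11 and 6 counts. As HSPA8 carries most of the class, the sum of the 6 cytosolic HSP70 genes was 1479 CPM in LPS and 1428 and 1378 CPM in the transfected libraries.

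**Figure D3:**
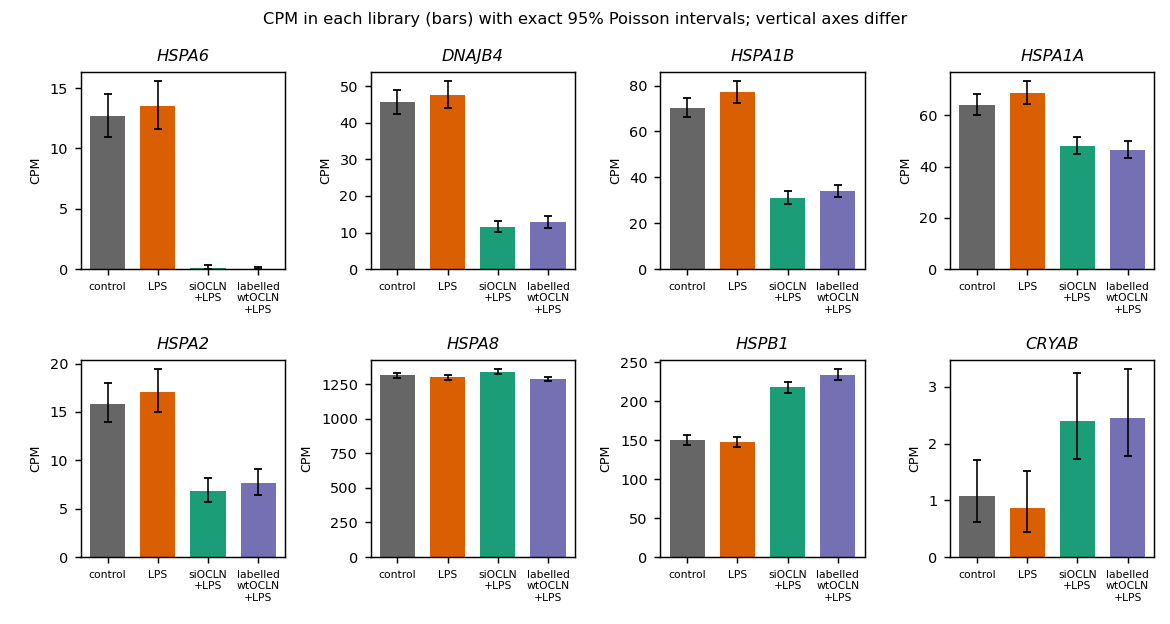
CPM of 8 members in each library, with exact 95% Poisson intervals as error bars; the vertical axes start at 0 and differ between genes. HSPA6, DNAJB4, HSPA1B, HSPA1A and HSPA2 lie lower in the transfected libraries than in the other pair, HSPA8 is level, and HSPB1 and CRYAB are higher.

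Among the divergent HSP70 genes, HSPA13, which encodes a microsome-associated HSP70 without the usual client-binding domain, was at 119 CPM in control, 113 with LPS, 62.6 in siOCLN+LPS and 58.4 for the library labelled wtOCLN+LPS. With library totals it came close to the call, 1.80-fold lower (1.67 to 1.95) and 1.94-fold lower (1.79 to 2.10). With TMM scaling it was at 0.613 and 0.58 of LPS, farther from the call. HSPA14, part of a ribosome-associated chaperone complex, was at 96.9 CPM in LPS and 79.0 and 81.9 CPM in the transfected libraries. HSPA12A had 25, 31, 14 and 21 counts, a log2 ratio of -0.85 in siOCLN+LPS and -0.56 for the library labelled wtOCLN+LPS. The HSP110 genes, nucleotide exchange factors of HSP70, summed to 577 CPM in LPS and 401 and 412 CPM in the transfected libraries. HSPA4 was at 362, 241 and 253 CPM and HSPH1 at 175, 123 and 126 CPM. HSPA4L differed less, at 40.3, 36.5 and 33.9 CPM.

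The HSP90 genes were close to LPS. HSP90AA1 was at 1075 CPM in control, 1051 with LPS, 1029 in siOCLN+LPS and 999 for the library labelled wtOCLN+LPS. HSP90AB1 was at 1339, 1385, 1149 and 1135 CPM, 0.830 of LPS (0.814 to 0.847) in siOCLN+LPS and 0.820 (0.804 to 0.836) in the other. Of the co-chaperones, STIP1, which bridges HSP70 and HSP90, was slightly above LPS at 213, 235 and 237 CPM in LPS and the transfected libraries. AHSA1, the activator of the HSP90 ATPase, was at 60.7, 52.4 and 56.6 CPM, and the HSP90 partner CHORDC1 at 33.6, 25.1 and 27.1 CPM.

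The mitochondrial chaperones summed to 1702 CPM with LPS, 1221 in siOCLN+LPS and 1259 for the library labelled wtOCLN+LPS. HSPD1 and HSPE1 encode the barrel and the lid of the mitochondrial chaperonin and are neighbours transcribed away from a shared promoter region. Their ratios had opposite signs. HSPD1 was at 656 CPM in control, 617 with LPS, 408 in siOCLN+LPS and 445 for the library labelled wtOCLN+LPS, 0.660 (0.640 to 0.681) and 0.721 (0.699 to 0.744) of LPS. HSPE1 was at 74.8, 79.0, 102 and 94.1 CPM, 1.29-fold higher (1.19 to 1.39) and 1.19-fold higher (1.10 to 1.29). A readthrough symbol, HSPE1-MOB4, overlaps HSPE1 and had 7, 30, 6 and 13 counts. HSPA9 was at 793 CPM in LPS and 529 and 543 CPM in the transfected libraries. The J-domain partner of HSPA9, DNAJA3, was at 85.1, 62.9 and 64.6 CPM, and TRAP1, the mitochondrial HSP90, at 127, 120 and 112 CPM.

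Of the J-domain proteins, DNAJB4 was the farthest from LPS. It is a cytosolic type B protein, known as HLJ1, that works with HSP70. Its counts were 725 in control, 660 with LPS, 202 in siOCLN+LPS and 225 for the library labelled wtOCLN+LPS, or 45.6, 47.6, 11.6 and 12.9 CPM. The transfected libraries lay well below both others, 4.12-fold lower than LPS (3.51 to 4.84) and 3.70-fold lower (3.18 to 4.33). Its closest relatives did not share this size of ratio: DNAJB1 was at 222, 199 and 216 CPM in LPS and the transfected libraries, and DNAJB5 at 21.6, 22.8 and 19.9 CPM. DNAJA4 was at 12.5, 6.52 and 8.17 CPM, with log2 ratios of -0.84 and -0.56. DNAJB6, which keeps polyglutamine proteins from aggregating, was above LPS at 154, 182 and 194 CPM. DNAJA1 (258, 242 and 260 CPM), DNAJA2 (124, 97.7 and 103 CPM), DNAJB2 (40.5, 39.5 and 33.2 CPM) and the endoplasmic reticulum protein DNAJB11 (97.1, 81.1 and 86.5 CPM) lay within 1.5-fold.

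With library totals, 9 members lay above 0 in siOCLN+LPS. For the library labelled wtOCLN+LPS the number was 8. BAG or small heat shock proteins made up 4 of the 9 and 4 of the 8. With TMM scaling 14 members lay above 0 in each comparison with LPS, so these counts depend on the scaling. CRYAB, the small heat shock protein alpha B-crystallin, had 17 counts in control, 12 with LPS, 42 in siOCLN+LPS and 43 for the library labelled wtOCLN+LPS. Its CPM were 2.78-fold (1.44 to 5.79) and 2.84-fold (1.47 to 5.92) those of LPS, but on the log2(CPM + 1) scale the ratios of 0.87 and 0.89 fall short of a call because the gene is near 1 CPM. HSPB1 was at 150 CPM in control, 148 with LPS, 218 in siOCLN+LPS and 234 for the library labelled wtOCLN+LPS, with log2 ratios of 0.56 and 0.66. HSPB8, the small heat shock protein that acts with BAG3, rested on 20, 19, 7 and 14 counts. BAG1 was at 94.1, 115 and 122 CPM in LPS and the transfected libraries and BAG3 at 110, 126 and 135 CPM. With library totals BAG3 thus lay between LPS and its control level of 153 CPM. That order depends on the scaling, as with TMM the BAG3 level in the library labelled wtOCLN+LPS is above control. BAG2 was below LPS, at 19.3, 12.2 and 14.0 CPM.

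Both heat shock factors were lower in the transfected libraries, within 2-fold. HSF1 was at 159 CPM in control, 142 with LPS, 111 in siOCLN+LPS and 109 for the library labelled wtOCLN+LPS, 0.777 (0.729 to 0.828) and 0.767 (0.720 to 0.817) of LPS. HSF2, at 24.5, 14.5 and 15.9 CPM in LPS and the transfected libraries, was 0.593 (0.502 to 0.700) and 0.650 (0.553 to 0.764) of LPS. HSF1 activity is set mainly after translation, so its RNA level is given as a level only.

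Members under 1 CPM in a transfected library, HSPA6, HSPA1L and HSPB8 in both and HSPA12A in siOCLN+LPS, entered these comparisons through LPS alone, and CRYAB entered through the transfected libraries alone. With control in place of LPS, 5 members were lower in siOCLN+LPS, the same 4 and DNAJA4, beside 5.44% of all genes. In the library labelled wtOCLN+LPS 4 were lower than control beside 4.91%: HSPA6, DNAJB4, HSPA1B and HSPA13, without HSPA2 (log2 ratio -0.96).

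The transfected libraries were compared directly to ask where occludin siRNA and the wild-type construct differ. Of the 36 members that reached 1 CPM in either, none was called, beside 0.0763% of 13109 genes called higher in siOCLN+LPS and 0.29% called lower. HSPA6, HSPA1L and HSPB8 were not tested. The ratios ran from -0.29 (HSPA12A, on 14 and 21 counts, and DNAJA4, at 6.52 and 8.17 CPM) to 0.25 (DNAJB2, at 39.5 and 33.2 CPM). DNAJB2 was 1.19-fold higher in siOCLN+LPS (1.06 to 1.33), and HSPD1 was at 0.916 of the library labelled wtOCLN+LPS (0.887 to 0.946). The log2 ratios were 0.19 for DNAJB5, -0.19 for BAG2, -0.15 for HSPA2 and -0.14 for DNAJB4, and the intervals of these 4 genes, of HSPA12A and of DNAJA4 include 1. Of the members called against LPS, the HSPA2 ratio between the transfected libraries was 0.889 (0.689 to 1.15) and that of DNAJB4 0.899 (0.740 to 1.09).

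The ratios also moved with transcript length and with GC content (the share of G and C bases). Among the members, the Spearman correlation between length and ratio was -0.50 in siOCLN+LPS and -0.54 for the library labelled wtOCLN+LPS, beside -0.16 and -0.14 over all genes with a known length, and -0.06 in LPS against control. With GC content the correlation among the members was 0.29 in siOCLN+LPS and 0.23 for the library labelled wtOCLN+LPS. Over all genes it was 0.19 and 0.2. In LPS against control it was -0.12 among the members and -0.093 over all genes. These are descriptions across genes that share their libraries. Of the 5 members under 1500 bases, 4 (HSPB1, HSPE1, BAG1 and CRYAB) were above LPS in both transfected libraries and AHSA1 was not. With the median of genes of like length subtracted, the member medians were -0.20 and -0.13, the 4 calls in siOCLN+LPS remained, and HSPA2 was no longer called in the library labelled wtOCLN+LPS. The part of length or GC content in single ratios was not tested.

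**Figure D4:**
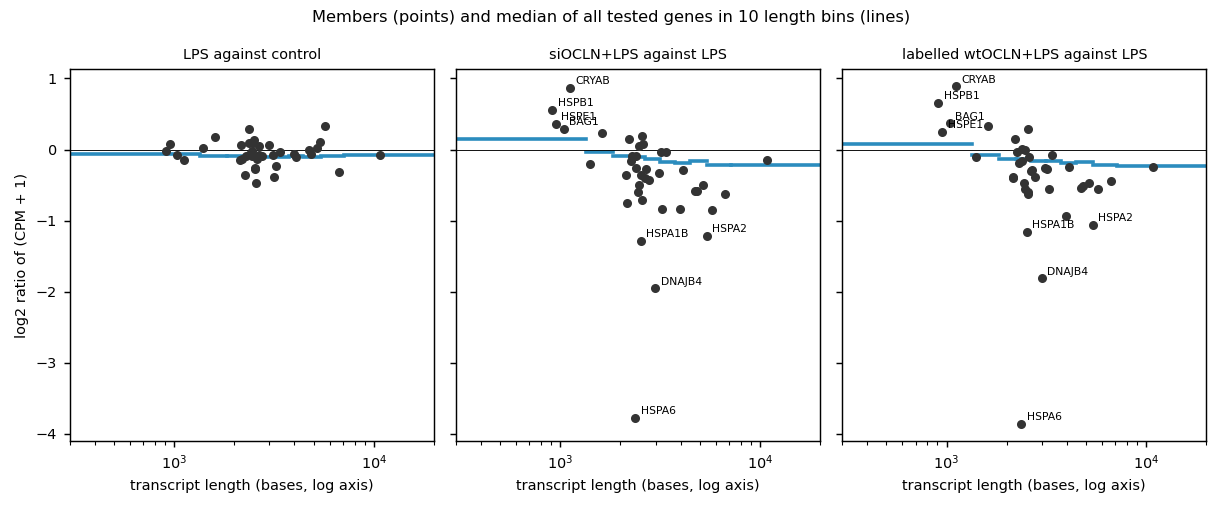
Log2 ratio of (CPM + 1) against transcript length (bases, log axis) for the 39 members (points), with the median of all tested genes in 10 length bins (lines), in 3 comparisons. In both comparisons with LPS the short HSPB1, HSPE1, BAG1 and CRYAB lie above 0 and the 4 members called lower lie far below the line, while points and line stay near 0 in LPS against control.

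Of the 8 members with the longer heat shock element letters, 1 was called lower in each transfected library, HSPA6, and the next lowest ratios were -0.60 in siOCLN+LPS and -0.47 for the library labelled wtOCLN+LPS. Of the 28 matched members without those letters, 3 were called lower in each, beside 3.92% and 3.69% of all genes. With the shorter letters 2 of 16 members were called lower in each, and without them 2 of 20. The windows of DNAJB4 and HSPA2 held neither set of letters, which says only that these letters are not in those windows.

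Other chaperone and stress genes were read from further lists, chosen like the members with earlier results known. No gene of the cytosolic chaperonin CCT and prefoldin, which fold actin and tubulin, was called (14 tested, medians -0.03 and -0.04). CCT8 had the lowest ratio of that list in both, at -0.44 and -0.47, and the highest were PFDN4 at 0.31 and PFDN6 at 0.16. Of 16 endoplasmic reticulum chaperones, DNAJB9, a partner of the HSP70 BiP, was lower in siOCLN+LPS with 432 counts in LPS and 227 there (log2 ratio -1.20, and -0.90 in the library labelled wtOCLN+LPS).

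Among 25 further HSP70 and HSP90 co-chaperones, FKBP5, an HSP90-binding immunophilin and glucocorticoid target, was at 544 CPM with LPS alone and 1116 CPM in siOCLN+LPS (log2 ratio 1.03) and within 2-fold in the other (0.87). GRPEL2, a mitochondrial nucleotide exchange factor, had log2 ratios of -1.03 and -0.87. Of 7 further genes listed with the small heat shock proteins 1 was tested, HSPB11, at 0.47 and 0.37, which does not describe that class. Among 17 HSF1-linked and proteotoxic stress genes, HMOX1, heme oxygenase, was lower in both (-1.24 and -1.27), as was the stress transcription factor ATF3 (-1.21 and -1.01). SQSTM1, the autophagy receptor p62, was lower in siOCLN+LPS (-1.03, and -0.85 in the other). DNAJC6, the clathrin-uncoating J-domain protein auxilin, was higher in the library labelled wtOCLN+LPS (1.13, and 0.88 in siOCLN+LPS). ATF3 was at 27.8 CPM in control and 38.1 with LPS, and SQSTM1 at 574.5 and 778.6. Against control, HMOX1 and RGS2 of these 17 were called lower and DNAJC6 higher in both transfected libraries, and ATF3 and SQSTM1 were not called. GRPEL2 was not called against control either.

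**Figure D5:**
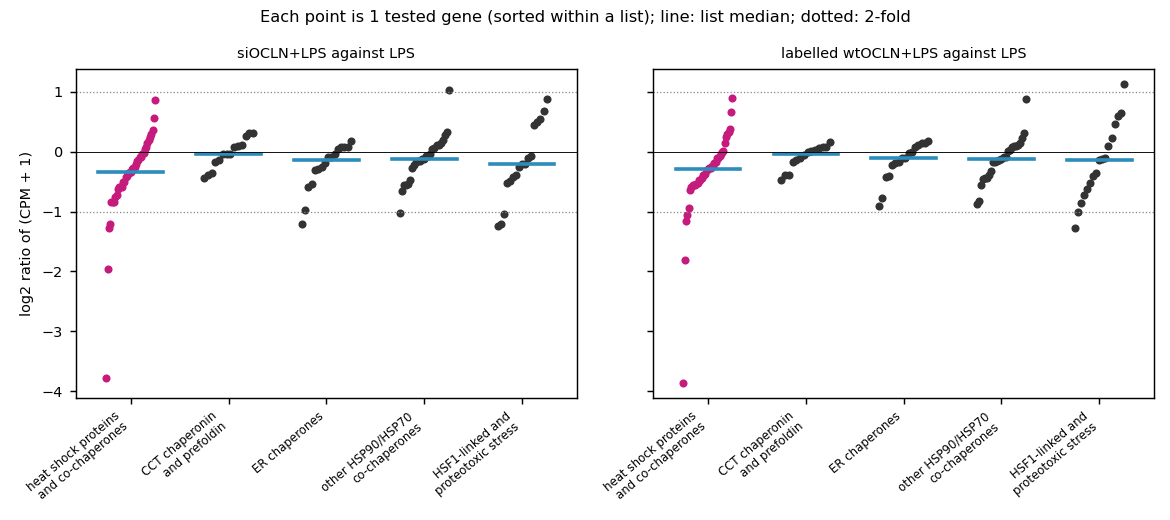
Log2 ratio of (CPM + 1) of each tested gene in the member list and in 4 other chaperone and stress lists, against LPS, for siOCLN+LPS (left) and for the library labelled wtOCLN+LPS (right); horizontal bars are list medians and dotted lines mark 2-fold. The member list reaches the lowest values through HSPA6 and DNAJB4 and has medians of -0.34 and -0.29, and the CCT and prefoldin list stays between -0.47 and 0.31.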

How the data were processed

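BEAS-2B RNA was measured in 4 libraries, 1 per group. Per the labels' protocols, a strand-specific kit was used on 1.3 µg of RNA each. The deposited files hold whole-number counts per gene symbol that the authors made from their reads. The submitters' processing notes name TopHat, Cufflinks and hg19, with no version or role. For the counting tool, strand setting and annotation, nothing is given in the sources used here. Without a known strand setting, reads of overlapping antisense genes could not be told apart. Every row names a gene.

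Counts were divided by the library total (CPM, per 1000000 counts), and genes that reached 1 CPM in at least 1 library of a pair were compared on log2(CPM + 1), with a call at 2-fold. A count model such as edgeR's could not be fitted with 1 sample per group. Counts of 0 stayed at 0 in the log2 ratios and calls. A floor of 3 counts per library was used only for the fold given where a count was 0. PCR duplicates carry no molecular identifier, so the 95% intervals cover counting error only; 1 count was worth 0.0571 to 0.0721 CPM. Lengths, GC content and shared 50-base runs came from GENCODE release 29 transcripts, and promoter windows from RefSeq. Named were all members at least 2-fold apart in a comparison, or up to 8 with the largest ratios, and from each other list those 2-fold apart or the highest and lowest. The members and lists were chosen with earlier results of these data known. The results of 1 further list are not reported here. Alternatives were TMM (edgeR 4.0.16) and median-ratio scaling (DESeq2 1.42.0), no filter, a pseudocount of 0.1 CPM, a 1.5-fold threshold, and control as reference. Removal of the length trend (10 length bins) and summing HSPA1A with HSPA1B were chosen after seeing the data. The step that makes the 2-fold calls was tested on simulated Poisson counts, and the other steps were not. All were run in Python 3.11.15 (NumPy 2.4.6, SciPy 1.17.1, pandas 2.3.3, matplotlib 3.10.9, Biopython 1.88) and R 4.3.3.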

Additional observations from a re-analysis of the deposited data

How the results depend on the processing

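No paired analysis was possible because each group has 1 library. Under the alternatives run, no called ratio changed sign. In siOCLN+LPS against LPS, the members called higher went from 0 to 1 with a pseudocount of 0.1 CPM (CRYAB) and to 1 at a 1.5-fold threshold, and those called lower from 4 to 11 at 1.5-fold. In the library labelled wtOCLN+LPS against LPS, members called lower numbered 2 with TMM or median ratio scaling (HSPA6 and DNAJB4) and 7 at 1.5-fold, and members called higher 1 with a pseudocount of 0.1 CPM (CRYAB) and 2 at 1.5-fold (HSPB1 and CRYAB). With a pseudocount of 0.1 CPM, 6 and 5 members were lower, but so were 6.9% and 6.86% of all genes, and 4.49% and 4.46% of all genes were higher. With TMM the genes past 2-fold over all genes were 603 higher and 378 lower in siOCLN+LPS, beside 449 and 530 with library totals, and 618 and 334 in the library labelled wtOCLN+LPS, beside 448 and 498. The counts without a filter were the same. With 1 library per group, differences between cultures could not be measured, and for members with under 50 counts (HSPA1L, HSPA12A, HSPB8, CRYAB) depth limits the ratios.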
